A study of Caenorhabditis elegans with 2 samples.

Results

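The 10 genes daf-2, akt-1, akt-2, daf-16, pqm-1, smk-1, aak-1, aak-2, skn-1 and hlh-30 carry insulin, AMP-activated kinase (AMPK), stress and lifespan signalling in Caenorhabditis elegans, and the binding of the transcription factor EOR-1 at them is described here. They are 10 of 19985 protein-coding genes in the Ensembl release 115 annotation, and 26 of the 6708 peaks of the pooled list were placed at them. The genes were chosen by pathway and by earlier results of the same pooled list, that is, with their peaks and signal ranks known. Peak presence and rank at these genes are therefore a description, and no test was attached to them. A peak belonged to a gene when its summit lay inside the gene or within 2000 bp of one of the gene's annotated transcript starts.

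Insulin-like peptides act in the worm through the receptor DAF-2, a phosphoinositide 3-kinase and the kinases AKT-1 and AKT-2, which phosphorylate the FOXO factor DAF-16 and keep it out of the nucleus. When the pathway is weak, DAF-16 enters the nucleus and acts with the co-regulator SMK-1, while the zinc finger factor PQM-1 moves in the opposite direction. AMPK, whose catalytic subunits are AAK-1 and AAK-2, responds to low cellular energy. The Nrf factor SKN-1 governs antioxidant and detoxification genes, and HLH-30, the worm TFEB, governs autophagy and lysosomal genes. EOR-1 itself belongs to the BTB zinc finger factors and is known from Ras and Wnt signalling in development.

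The study had 1 group, whole L3 larvae of mixed sex of strain OP81, with 2 biological replicates, numbered 1 and 2 as in the labels. Every animal carried the unc-119(ed3) mutation on chromosome III and the integrated transgene wgIs81, which supplies GFP-tagged EOR-1, so the results rest on 1 transgenic line. Binding in single tissues cannot be told apart in whole larvae, and an untagged or mutant group was not analysed here. The deposited lists on the ce11 genome held 2488 peaks for replicate 1, 2610 for replicate 2, 6708 for the pooled reads and 33 after thresholding on the irreproducible discovery rate. Peaks are ranked by the authors' signal value, which is comparable within a list only, and rank 1 is the strongest. The pooled list mixes peaks with background entries, so its weaker entries are called candidates here. Peaks are not replicates of each other. Read depth is unknown, because the lists give no read counts.

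Entries of the pooled list lay at all 10 genes. Of these genes 7 (pqm-1, akt-2, aak-2, hlh-30, smk-1, akt-1 and daf-2) had a peak among the 1000 strongest of that list. The other 3, daf-16, skn-1 and aak-1, had weak candidates only. The sole aak-1 candidate had a deposited −log10 q-value of 0.388, against 3.20 at the strongest pqm-1 peak, so it does not establish binding at aak-1. The weakest daf-2 and daf-16 candidates had values as low, 0.356 and 0.388, and the daf-2 candidate ranked 5461 had 0.394. Values from 0.805 to 1.03 were found at the weakest akt-2, hlh-30 and aak-2 entries and at the daf-16 candidate ranked 3457. By the same rule 28.4% of all protein-coding genes had a pooled peak and 5.83% had one of the 1000 strongest. None of the 26 peaks was a thresholded peak: the strongest of them, in pqm-1, ranked 211 with a signal value of 11.4, whereas the weakest thresholded peak ranked 33 with 19.3. The nearest thresholded peak to any of the 26 lay 40523 bp away. Of the 26, 10 ranked within the first 1000, 18 lay inside the gene and 8 lay upstream of its first start.

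Long genes catch more peaks, so the shares were also taken by gene span. The genes daf-2, daf-16 and hlh-30 span over 16 kb, and of the 343 genes of that size 72.0% had a pooled peak and 16.6% had one of the 1000 strongest. Of genes of 8 to 16 kb, the size of smk-1 and skn-1, 50.6% had a peak and 11.2% a strong one. For genes of 4 to 8 kb, the size of akt-2, aak-1 and aak-2, the shares were 38.1% and 7.54%, and for genes of 2 to 4 kb, the size of akt-1 and pqm-1, they were 27.2% and 5.60%. The 10 searched stretches together measured 152417 bp and held 1.71 peaks per 10 kb, against 0.669 per 10 kb over the 6 nuclear chromosomes. For the 1000 strongest peaks the densities were 6.56 per 100 kb in these stretches and 0.997 per 100 kb over the chromosomes.

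**Figure D1:**
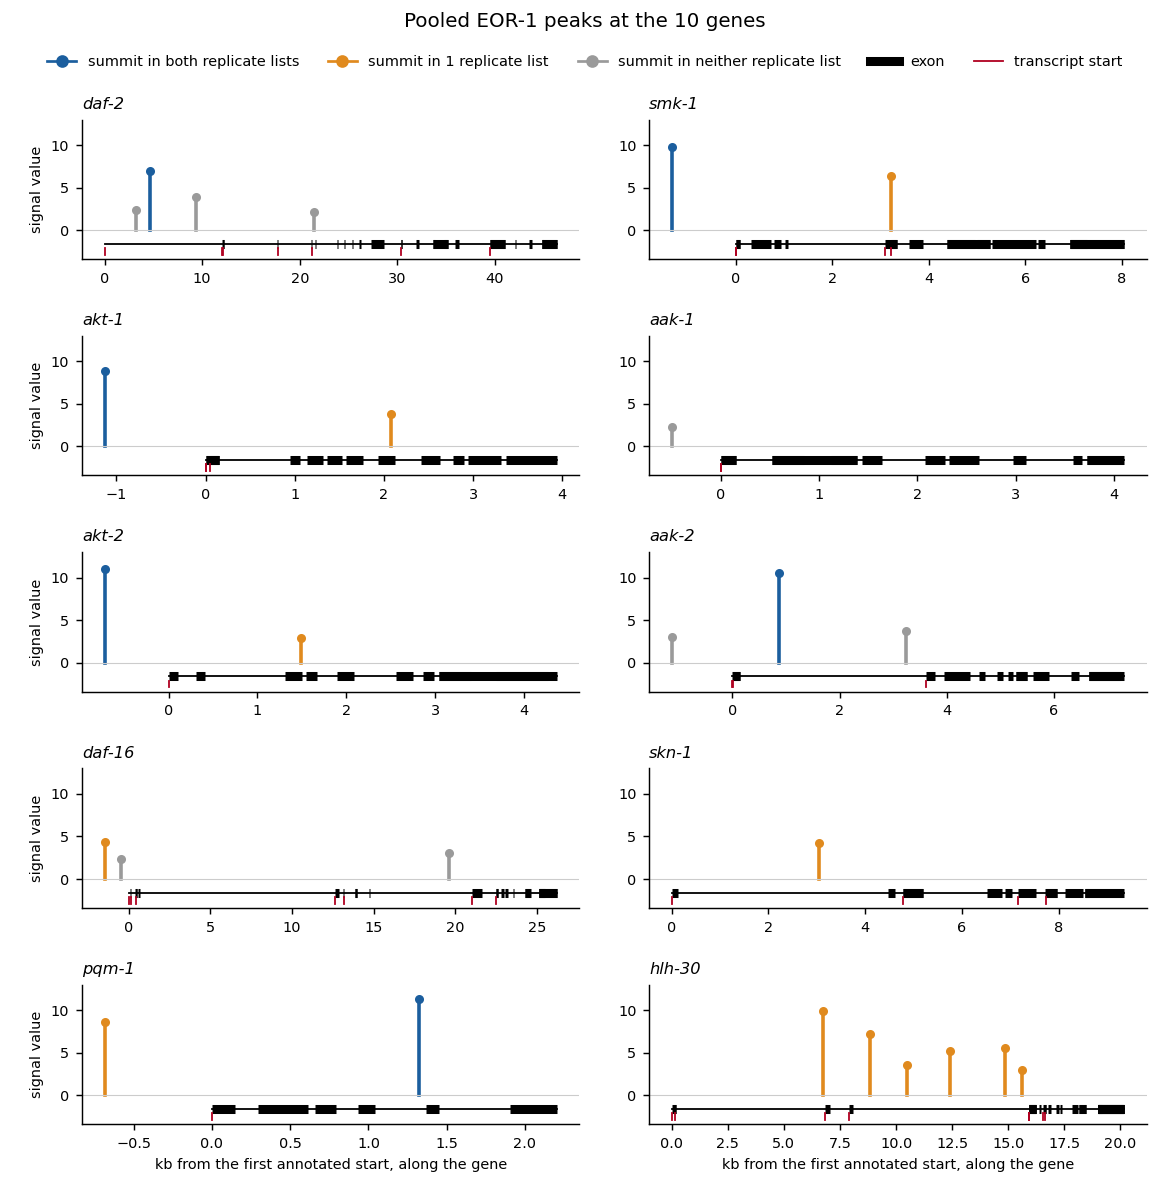
Each panel shows 1 gene from its first annotated start to its end (horizontal axis, kb along the gene), with exons as black blocks, transcript starts as red ticks and pooled peaks as stems whose height is the authors' signal value (vertical axis, no unit). Blue stems have a summit within 200 bp in both replicate lists, orange stems in 1 and grey stems in neither; 6 of the 26 are blue and hlh-30 has 6 orange stems.

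The insulin receptor gene daf-2 (WBGene00000898, chromosome III, 2994514 to 3040846, minus strand) had 4 peaks, all in introns, of which 1 was strong. That peak (3036014 to 3036417) ranked 696 with a signal value of 6.99 and was present in both replicate lists, at rank 1136 in replicate 1 and rank 728 in replicate 2. It lay 4630 bp downstream of the first start, in the 11981 bp first intron of the longest transcript, and also over an exon of the long noncoding RNA gene linc-143, which runs on the same strand. The other 3 ranked 2244, 5461 and 5882 with signal values between 2.19 and 3.86 and had no summit within 200 bp in either replicate list. The strong daf-2 peak was thus the single one with a summit in a replicate list.

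The kinase genes akt-1 and akt-2 resembled each other in layout. Each had a strong peak upstream of its first start and a weak one in a coding exon. In akt-1 that exon belongs to transcript C12D8.10a.1, and the summit lies in intron 5 of transcript C12D8.10b.1. The upstream akt-2 peak (X chromosome, 14146776 to 14147179) lay 722 bp before the single start of akt-2 (WBGene00000103, 14147700 to 14152070, plus strand) and ranked 231 with a signal value of 11.01. Its replicate ranks were 1209 in replicate 1 and 374 in replicate 2. The upstream akt-1 peak (chromosome V, 10247569 to 10247972) lay 1134 bp before the first start of akt-1 (WBGene00000102, 10248905 to 10252845, plus strand) and ranked 396 with a signal value of 8.82. Its replicate ranks lay far apart, at 1781 in replicate 1 and 130 in replicate 2. The coding exon peaks were weaker. In akt-1 it ranked 2321 (signal value 3.86) and was seen in replicate 1 only, at rank 1388, and in akt-2 it ranked 3811 (2.90) and was seen in replicate 2 only, at rank 1025.

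The sequences around the strongest summits of the receptor and of both AKT kinases are shown because all 3 hold a form of the sequence common in strong peaks of this experiment. They run 100 bp to either side of the summit on ce11, 5′ to 3′ in the direction of the gene. Capitals mark AGACGCAG with at most 1 mismatch and exact GAGAGA, on either strand, so that a match on the opposite strand reads CTGCGTCT or TCTCTC. The daf-2 window is chrIII:3036116-3036316 on the minus strand, the akt-1 window chrV:10247671-10247871 on the plus strand and the akt-2 window chrX:14146878-14147078 on the plus strand.
daf-2: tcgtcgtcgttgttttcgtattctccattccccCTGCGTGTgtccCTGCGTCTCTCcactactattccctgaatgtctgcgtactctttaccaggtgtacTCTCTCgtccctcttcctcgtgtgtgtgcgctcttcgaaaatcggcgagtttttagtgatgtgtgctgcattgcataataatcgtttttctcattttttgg
akt-1: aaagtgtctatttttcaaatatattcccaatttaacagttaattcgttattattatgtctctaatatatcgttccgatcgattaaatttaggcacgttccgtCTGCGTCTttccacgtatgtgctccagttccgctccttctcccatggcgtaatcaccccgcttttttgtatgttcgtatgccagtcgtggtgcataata
akt-2: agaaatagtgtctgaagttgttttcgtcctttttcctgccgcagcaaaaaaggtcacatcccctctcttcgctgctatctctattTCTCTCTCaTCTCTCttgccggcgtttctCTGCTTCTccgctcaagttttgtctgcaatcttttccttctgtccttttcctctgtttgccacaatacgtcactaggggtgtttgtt
In daf-2 the 8-base sequence stands 51.5 bp before the summit without mismatch, overlapping a GAGAGA match, and again 63.5 bp before it with 1 mismatch. In akt-1 an exact match lies 5.5 bp after the summit, counted to its centre. In akt-2 the match 17.5 bp after the summit has 1 mismatch, and 3 overlapping or neighbouring GAGAGA matches lie 3.5 to 12.5 bp before it.

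The FOXO gene daf-16 (WBGene00000912, chromosome I, 10750498 to 10776703, plus strand), the main output of the insulin pathway, had weak candidates only. The strongest (10748815 to 10749218) lay 1481 bp upstream of the first of its 7 starts, and ranked 1848 with a signal value of 4.31. It was absent from the list of replicate 1 and stood at rank 2488 of 2610 in replicate 2, near the bottom of that list. The second, in an intron 1397 bp before the start of transcript R13H8.1a.1, ranked 3457 (signal value 3.08), and the third, 466 bp upstream of the first start, ranked 5540 (2.34). Neither had a summit within 200 bp in either replicate list, and both lay over short noncoding RNA genes.

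The genes pqm-1 and smk-1 had 2 of the 1000 strongest peaks each. The pqm-1 peak with the highest signal value of all 26 (chromosome II, 11151073 to 11151476) lay inside the gene (WBGene00004096, 11150391 to 11152595, minus strand), in intron 4 of its 5 and 1320 bp after its single start. It ranked 211 with 11.4, and its replicate ranks were 710 in replicate 1 and 54 in replicate 2. The second pqm-1 peak, 687 bp upstream of the start, ranked 422 (8.61) and was seen in replicate 1 only, at rank 1764. This second site was thus placed far higher by the pooled list than by replicate 1.

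The strongest smk-1 peak (chromosome V, 8606273 to 8606676) lay in the intergenic stretch between smk-1 (WBGene00018285, 8607800 to 8615843, plus strand) and vps-60, which is transcribed away from it. It was 1325 bp upstream of smk-1 and 347 bp upstream of the vps-60 start, and among the 26 peaks it was the 1 with the start of another protein-coding gene nearer than its own. It ranked 321 with a signal value of 9.75, and its replicate ranks were close, 448 in replicate 1 and 437 in replicate 2. The second smk-1 peak (8610819 to 8611222) ranked 855 (6.36) and lay 3 bp before the start of the internal transcript F41E6.4b.1. Its summit was in the 5′ UTR of another internal transcript and in the coding sequence of the opposite-strand gene fip-4. The peak was seen in replicate 2 only, at rank 167. Which of these genes either site acts on was not tested.

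The windows below contrast the strongest smk-1 and pqm-1 summits. The smk-1 window is chrV:8606375-8606575 on the plus strand and the pqm-1 window chrII:11151175-11151375 on the minus strand, with capitals as above.
smk-1: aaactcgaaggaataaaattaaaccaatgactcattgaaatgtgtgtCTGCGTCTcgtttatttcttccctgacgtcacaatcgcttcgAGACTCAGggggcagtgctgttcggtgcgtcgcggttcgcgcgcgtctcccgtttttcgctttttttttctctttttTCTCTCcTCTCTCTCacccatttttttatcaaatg
pqm-1: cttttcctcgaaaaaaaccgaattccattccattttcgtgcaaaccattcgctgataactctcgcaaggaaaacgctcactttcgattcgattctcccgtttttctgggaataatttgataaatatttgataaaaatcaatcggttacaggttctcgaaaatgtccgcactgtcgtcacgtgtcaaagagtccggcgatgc
The smk-1 window holds an exact 8-base match 49.5 bp before the summit, a second with 1 mismatch 7.5 bp before it, and 3 GAGAGA matches 68.5 to 77.5 bp after it. The pqm-1 window holds neither sequence, although its peak outranks the other 25.

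AMPK is a trimer, and the genes of its catalytic alpha subunits differed in these lists. The aak-2 gene (WBGene00020142, X chromosome, 16796087 to 16803398, plus strand) encodes the subunit through which low energy and reduced insulin signalling extend worm lifespan. Its strongest peak (16796750 to 16797153) lay 863 bp after a start, in the 3475 bp first intron, and ranked 262 with a signal value of 10.5. The replicates placed it almost equally, at rank 254 in replicate 1 and rank 265 in replicate 2. The other 2 aak-2 peaks, 370 bp before the start of transcript T01C8.1c.1 and 1134 bp upstream of the first start, ranked 2429 (3.77) and 3431 (3.09) and had no summit in either replicate list. The aak-1 gene (WBGene00019801, chromosome III, 8756990 to 8761090, minus strand) had a single candidate, 496 bp upstream of its first start, which ranked 5540 with a signal value of 2.34 and was absent from both replicate lists.

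The stress factor gene skn-1 (WBGene00004804, chromosome IV, 5651039 to 5660384, minus strand) had 1 pooled peak (5657144 to 5657547). It lay in the 4347 bp first intron of transcript T19E7.2a.1, 1741 bp before the start of transcript T19E7.2c.1. The summit also lay over the short noncoding RNA gene T19E7.26. The peak ranked 1864 with a signal value of 4.28. It was absent from replicate 1 and ranked 1046 in replicate 2.

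The TFEB gene hlh-30 (WBGene00020930, chromosome IV, 4014793 to 4034951, minus strand) had the most peaks, 6, all inside introns and each in a single replicate list. They covered 8909 bp from summit to summit, with gaps of 786 to 2445 bp. Of the 6678 runs of 6 successive summits along the chromosomes, 210 were as short (3.14%), and of the 343 genes over 16 kb, 27 had 6 or more peaks. The strongest (4028026 to 4028429) ranked 306 with a signal value of 9.91 and lay 101 bp before the start shared by transcripts W02C12.3b.1 and W02C12.3c.1, within a 7694 bp intron of longer transcripts. The other 5 lay in the following 8295 bp intron and ranked 647 (7.20), 1122 (5.57), 1278 (5.25), 2578 (3.59) and 3702 (2.94).

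The hlh-30 peaks split by replicate. Replicate 1 held the peaks ranked 306, 647, 1122 and 2578 in the pooled list, at its own ranks 119, 601, 138 and 1840. Replicate 2 held the peaks ranked 1278 and 3702, at its own ranks 447 and 1696. No hlh-30 site was shared, so this gene has a strong pooled rank without a site seen in both replicates. Such sites were common: of the 200 strongest peaks of replicate 1, 85 (42.5%) had no replicate 2 summit within 200 bp, and of the 200 strongest of replicate 2, 90 (45.0%) had none in replicate 1.

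The windows of aak-2, skn-1 and 3 hlh-30 peaks are shown because the first 2 and the third hlh-30 window hold the 8-base sequence without mismatch, whereas the strongest hlh-30 window has GAGAGA alone. They are chrX:16796852-16797052 on the plus strand for aak-2, chrIV:5657246-5657446 on the minus strand for skn-1, and, on the minus strand, chrIV:4028128-4028328, chrIV:4020005-4020205 and chrIV:4022450-4022650 for the hlh-30 peaks ranked 306, 1122 and 1278.
aak-2: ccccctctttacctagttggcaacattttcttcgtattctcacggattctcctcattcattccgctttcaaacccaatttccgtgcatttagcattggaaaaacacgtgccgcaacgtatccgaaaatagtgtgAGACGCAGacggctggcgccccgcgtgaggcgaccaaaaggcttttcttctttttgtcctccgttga
skn-1: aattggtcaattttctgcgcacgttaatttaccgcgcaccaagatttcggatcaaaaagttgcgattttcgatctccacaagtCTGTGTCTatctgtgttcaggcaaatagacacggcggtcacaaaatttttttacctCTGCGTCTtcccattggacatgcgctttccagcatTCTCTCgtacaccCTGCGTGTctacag
hlh-30 rank 306: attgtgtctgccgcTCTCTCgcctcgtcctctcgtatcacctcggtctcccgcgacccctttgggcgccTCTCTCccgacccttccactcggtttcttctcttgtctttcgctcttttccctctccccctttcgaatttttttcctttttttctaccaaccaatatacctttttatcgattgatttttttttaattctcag
hlh-30 rank 1122: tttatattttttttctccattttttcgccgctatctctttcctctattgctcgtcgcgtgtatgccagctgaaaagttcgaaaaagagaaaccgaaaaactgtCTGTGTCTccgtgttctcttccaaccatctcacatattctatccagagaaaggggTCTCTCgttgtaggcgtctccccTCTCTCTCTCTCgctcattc
hlh-30 rank 1278: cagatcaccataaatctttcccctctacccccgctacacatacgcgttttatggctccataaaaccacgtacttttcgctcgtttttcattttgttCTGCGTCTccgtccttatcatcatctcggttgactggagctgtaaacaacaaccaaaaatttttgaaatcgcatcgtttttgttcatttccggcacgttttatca
The exact match lies 37.5 bp after the summit in aak-2, 42.5 bp after it in skn-1 and 0.5 bp before it in the hlh-30 peak ranked 1278. The skn-1 window has 2 further matches with 1 mismatch, and the hlh-30 peak ranked 1122 has 1 match with a mismatch 6.5 bp after the summit and 5 GAGAGA matches 60.5 to 89.5 bp after it, of which 4 overlap. In the hlh-30 peak ranked 306 the 2 GAGAGA matches lie 28.5 and 83.5 bp before the summit.

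The design has no second group, so the comparison it allows is between the replicates. A summit within 200 bp was found in both replicate lists for 6 of the 26 peaks, in 1 list for 12 and in neither for 8, and among all pooled peaks 7.80% had one in both, 44.1% in 1 list and 48.2% in neither. The 6 were the strongest peaks of pqm-1, akt-2, aak-2, smk-1, akt-1 and daf-2. Support fell with rank, as it did in the whole list: 5 of the 7 peaks ranked 101 to 500 were in both, beside 217 of all 400 peaks of those ranks, 1 of the 3 ranked 501 to 1000, beside 126 of all 500, and 0 of the 16 weaker ones. Of these 16, 4 ranked 1001 to 2000, where 6.99% of all peaks were in both, 8 ranked 2001 to 4000, where 0.862% were, and 4 ranked lower, where 0.267% were. The 8 peaks found in neither list ranked 2244 to 5882. The pooled calls used the same reads as the replicate lists, so the 2 kinds of list are not independent.

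How closely the replicates ordered the 6 shared sites varied. At aak-2 and smk-1 the ranks differed by little (254 in replicate 1 and 265 in replicate 2 for aak-2, 448 in replicate 1 and 437 in replicate 2 for smk-1), and at daf-2 they were 1136 in replicate 1 and 728 in replicate 2. At pqm-1, akt-2 and akt-1, whose ranks are given above, replicate 2 placed the site far higher. Taken alone, the list of replicate 2 gave 17 peaks at 9 of the 10 genes, 7 of them with one of its 1000 strongest peaks. The list of replicate 1 gave 12 peaks at 7 genes, and 4 genes (pqm-1, smk-1, hlh-30 and aak-2) had one of its 1000 strongest. In the list of replicate 1 the peaks of akt-1, akt-2 and daf-2 were thus outside the 1000 strongest, and aak-1 had no peak in either replicate list. The share of all protein-coding genes with a peak was not taken for the replicate lists, so these gene counts have no measure beside them.

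**Figure D2:**
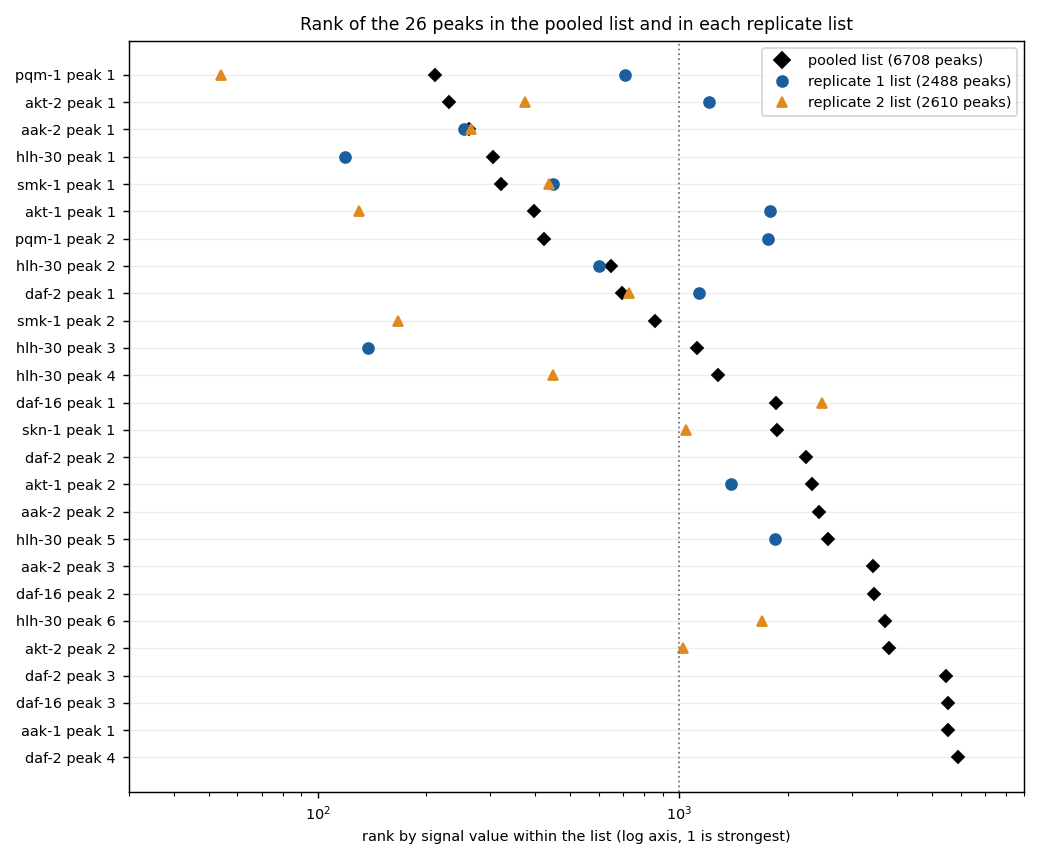
Each row is 1 of the 26 pooled peaks, ordered by pooled rank (numbered within each gene from the strongest), and the horizontal log axis gives its rank by signal value in the pooled list (black diamonds), the replicate 1 list (blue circles) and the replicate 2 list (orange triangles) where a summit lay within 200 bp. The dotted line marks rank 1000. The symbols of the strongest aak-2 and smk-1 peaks lie close together, whereas those of the strongest pqm-1, akt-2 and akt-1 peaks are far apart.

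The 8-base sequence AGACGCAG, which earlier results of these lists had found more often in strong peaks, lay no more than 100 bp from the summit, allowing 1 mismatch, in 11 of the 26 peaks, beside 19.9% of all pooled peaks. Among the 1000 strongest it was in 6 of the 10 peaks at these genes, beside 37.3% of all. Without mismatch it was in 6 of the 26, beside 7.13% of all, at daf-2, akt-1, smk-1, aak-2, skn-1 and hlh-30. Of the 6 peaks found in both replicates 5 held it with at most 1 mismatch, the exception being pqm-1, beside 38.6% of the 523 such peaks in the list. Of the 12 found in 1 replicate 5 held it (22.2% of all such peaks), and of the 8 found in neither 1 did, at aak-1 (14.9%). GAGAGA was in 12 of the 26 (26.9% of all pooled peaks) and in 5 of the 10 strong ones (45.7% of the 1000 strongest). Either sequence was in 16 of the 26 peaks, beside 37.7% of all pooled peaks, and in 7 of the 10 strong ones, beside 60.7% of the 1000 strongest. The 16 were at daf-2, akt-1, akt-2, daf-16, smk-1, aak-1, aak-2, skn-1 and hlh-30, and pqm-1 alone had none. A match of letters is a description of these windows and does not show that EOR-1 contacts them.

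**Figure D3:**
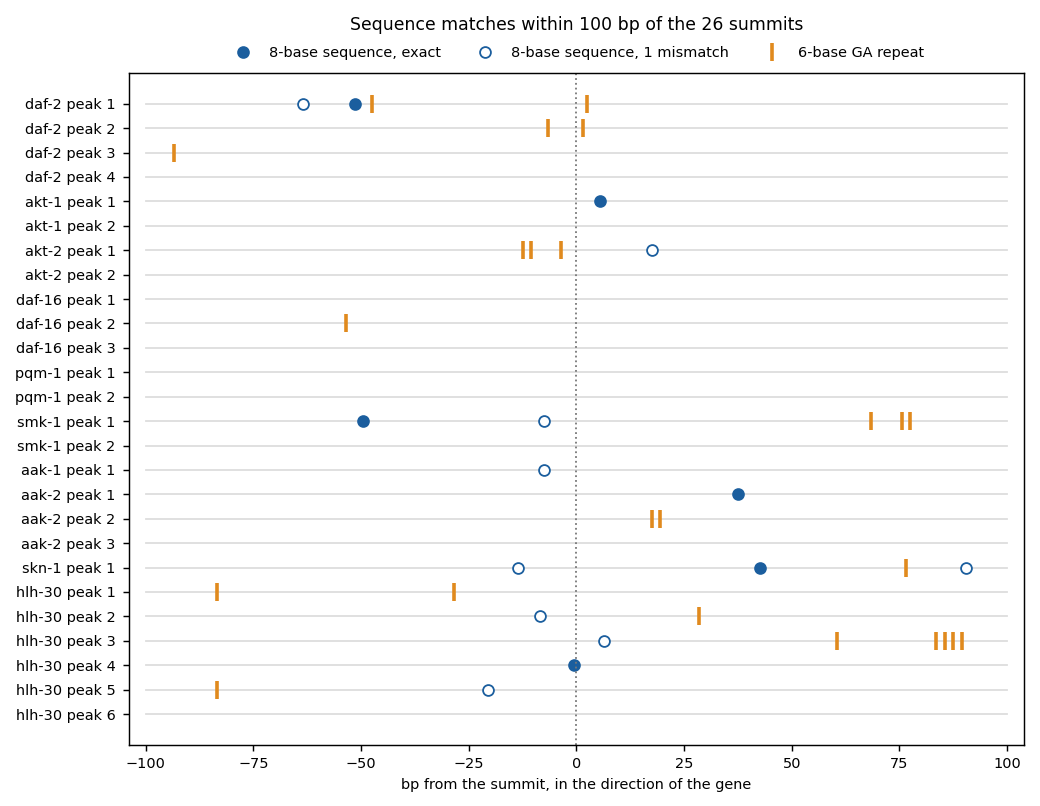
Each row is the window of 100 bp to either side of 1 of the 26 summits (horizontal axis, bp from the summit in the direction of the gene), with exact matches to the 8-base sequence as filled circles, matches with 1 mismatch as open circles and the 6-base GA repeat as orange ticks. The akt-1 match and the hlh-30 peak 4 match lie within 6 bp of the summit, and both pqm-1 rows are empty.

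Sequences recognised by factors of the pathway itself were searched in the same windows and found in 1 to 3 of the 26 peaks each. The DAF-16 binding element GTAAACA was found, on either strand, in 3 of the 26 peaks (daf-2 at rank 5461, daf-16 at rank 5540 and hlh-30 at rank 1278), beside 3.31% of all pooled peaks. The DAF-16 associated element TGATAAG, which PQM-1 recognises, was found in 1 (hlh-30 at rank 1278), beside 4.86%. The E-box CACGTG, a site of basic helix-loop-helix factors such as HLH-30, was found in 3 (pqm-1 at rank 211, aak-2 at rank 262 and hlh-30 at rank 647), beside 6.32%. These 3 were among the 1000 strongest, of which 8.8% held the E-box.

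The rest of the pathway was read from 10 lists of 124 other genes, of which 60 (48.4%) had a pooled peak and 23 (18.5%) had one of the 1000 strongest, beside 28.4% and 5.83% of all protein-coding genes. These lists were also chosen with earlier results of these data known, so their shares are a description. Upstream of DAF-2, 2 of 14 insulin-like peptide genes had a peak, ins-17 and ins-18. The ins-17 peak stood at rank 43 in the pooled list and rank 58 in replicate 2, and was absent from replicate 1. Its summit lay 1934 bp after a start, beyond the end of the gene. The ins-18 peak stood at rank 3707. Between the receptor and AKT, 4 of 8 genes had a peak. The strongest was at aap-1, the adaptor of the phosphoinositide 3-kinase (rank 742, in replicate 2 only). The aap-1 summit lay 1541 bp before a start and in a coding exon of a gene not identified here. Next came pdk-1, the kinase that activates AKT (rank 1028, in both replicates). Of 16 cofactors and regulators of DAF-16, 6 had one, and 1 was strong, the 14-3-3 gene ftt-2, whose protein binds phosphorylated DAF-16 and whose peak ranked 3. That ftt-2 peak is a thresholded one, and it ranked 1 in replicate 1 and had no summit within 200 bp in replicate 2. The next, hcf-1, ranked 1058 and was in replicate 2 only. The hcf-1 summit lay 346 bp before a start and in an intron of a gene not identified here. Among 14 AMPK subunit and partner genes 8 had a peak, led by the folliculin gene flcn-1 (rank 462) and the gamma subunit gene aakg-1 (rank 1049). The flcn-1 peak lay at the limit of 2000 bp before a start, in a 5′ UTR of a gene not identified here. It was absent from replicate 1 and stood at rank 2588 of 2610 in replicate 2. The aakg-1 peak had no summit in either replicate list.

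Transcription factor and autophagy genes had the highest shares among the 10 lists. Of 18 other longevity transcription factor genes, 15 had a pooled peak (83.3%) and 8 a strong one (44.4%), led by hif-1, the hypoxia factor (rank 17, a thresholded peak 1950 bp upstream of a start), and mdl-1, a Mad-like factor (rank 99). The mdl-1 summit lay 1747 bp after a start, beyond the end of the gene. The median span of the transcription factor list was 4728 bp, against 2026 bp for all protein-coding genes. Of all genes of 4 to 8 kb, 38.1% had a peak and 7.54% a strong one. Whether span bears on the shares of the lists was not tested. Of 13 autophagy and lysosome genes, the class that HLH-30 controls, 11 had a peak (84.6%) and 5 a strong one (38.5%). The median span of this list was 2503 bp. The strongest peaks were at lgg-2 (rank 101, in both replicates) and bec-1 (rank 233, in replicate 2 only). In the genes with a peak the median rank of the strongest one was 665 for the transcription factors and 1131 for the autophagy genes. It was 358.5 for the 10 genes described here and 2813 for all protein-coding genes. The 10 genes were chosen with their ranks known, and the lists with earlier results of these data known.

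In each of the other 4 lists the share with a peak was at most 50%. Of 12 TOR pathway genes 6 had a peak. They were led by ife-2, an eIF4E gene (rank 200, in both replicates), and let-363, the TOR kinase gene (rank 394, in replicate 1 only). The ife-2 summit lay 1499 bp after a start, beyond the end of the gene. Of 7 regulators of SKN-1 2 had a peak. They were wdr-23, which targets SKN-1 for degradation (rank 899, in replicate 1 only), and nsy-1 (rank 5522, in neither replicate). Of 15 DAF-16 target genes 5 had a peak and 3 a strong one. The small heat shock genes hsp-16.2 (rank 158, in both replicates) and sip-1 (rank 630, in replicate 1 only) led. The hsp-16.2 summit lay 584 bp after a start, beyond the end of the gene. The hsp-16 genes are close copies of each other, and how the authors shared reads among such copies is not stated. Of 7 SKN-1 target genes, 1 had a peak, gcs-1 (rank 2758).

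**Figure D4:**
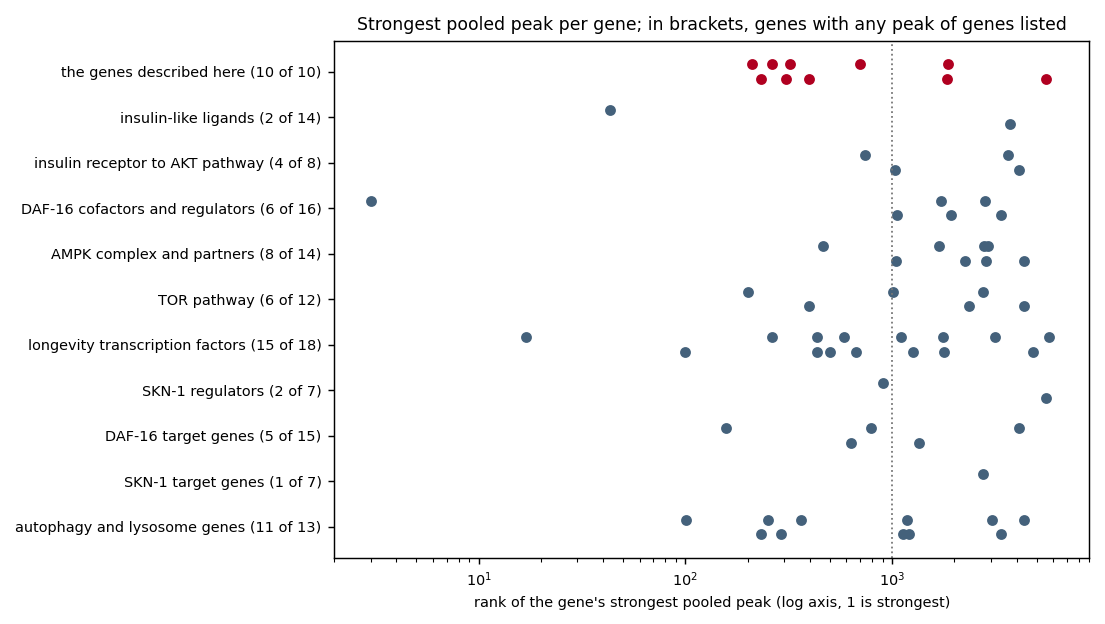
Each point is a gene with a pooled peak, placed by the rank of its strongest peak (horizontal log axis, 1 is strongest), with the 10 genes described here in red at the top and the other pathway lists in blue below; the brackets give the genes with a peak of the genes listed, and points are offset vertically for legibility only. The dotted line marks rank 1000, left of which lie 7 of the red points, 8 of the transcription factor genes and 5 of the autophagy genes.

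The limit of 2000 bp left out few peaks that were close. Of the peaks kept for their distance alone, the farthest was the daf-16 candidate at 1481 bp (rank 1848). The nearest that was left out lay 2398 bp from an akt-1 start and ranked 735 with a signal value of 6.77, and the next, 2473 bp from the pqm-1 start and beyond its end, ranked 6277 with 2.15.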

How the data were processed

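Per the deposited file lists, the authors called peaks in narrowPeak format for each replicate and for pooled reads against 2 control entries, as input for the irreproducible discovery rate, and thresholded the result. The signal value that the authors deposited for each peak ranked peaks within a list. The deposited −log10 q-value was tied at 3.20 in 784 of the 6708 pooled peaks and ranked nothing. The normalization of the signal value, the aligner and the caller are not stated, and control reads were not used here. The ce10 lists were not used.

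The ce11 lists were joined to Ensembl release 115 genes and the RefSeq copy of WBcel235 with Python 3.11.15, numpy 2.4.6 and pandas 2.3.3. Coordinates are 1-based. The summit was column 2 plus column 10. In all but 1 pooled peak the interval was 404 bp wide, so the summit is its middle. Gene parts came from protein-coding genes, exonic parts before introns. The assignment, sharing and sequence search were tested on 60 planted peaks. No test of significance was run, because the genes and the gene lists were chosen with earlier results of these data known and the design has 1 group.

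The genes named are all 10, each with every peak, the 2 genes with the strongest peak in each pathway list, and neighbours of a peak. Alternatives covered the distance, the gene body, each replicate list alone, the number of strongest peaks, sharing and the sequence search.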

Additional observations from a re-analysis of the deposited data

How the results depend on the processing

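For 5 results 36 alternative counts were taken, and a count was taken as moved when it changed by more than 1.5 times. With distances of 1000 or 5000 bp, or with the gene body left out, all 5 counts stayed within that factor: the number of genes with a peak stayed at 10, and the number of peaks was between 20 and 32. Using the list of 1 replicate alone gave 7 to 9 genes with a peak, 4 to 7 genes with one of the 1000 strongest, 12 to 17 peaks, and 7 peaks with the 8-base sequence in either list; these replicate lists are shorter than the pooled one. In the thresholded list 0 of the 10 genes had a peak, and 6 had one when a summit in both replicate lists was required. For all of these gene counts, including those at other distances and without the gene body, the share of all protein-coding genes was not taken. The peaks with the 8-base sequence in the list of 1 replicate have no share of that list beside them either. With no mismatch allowed, 6 peaks held the 8-base sequence. Counts of peaks in both replicates stayed at 6 under each other rule of sharing, with summits within 100 or 500 bp or overlapping intervals. No paired analysis was possible because the study has 1 group. Read depth is unknown, so how far it limits the ranks was not tested.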

Other observations

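Of the 17 replicate 2 peaks at these genes, 5 had no pooled summit within 200 bp, beside 27.6% of all 2610 peaks of that list. Of the 12 replicate 1 peaks, 0 lacked one, beside 17.6% of all 2488. The 5 were at daf-2 (rank 2324), akt-1 (rank 875, 299 bp from the pooled upstream summit), akt-2 (rank 1850) and skn-1 (ranks 1612 and 2475, the weaker of them 217 bp from the pooled summit). At skn-1, replicate 2 thus gave 3 entries in its list and replicate 1 gave 0.

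The median GC content of the windows was 42.5% for the 26 peaks and 40.3% for all pooled peaks, and among the 1000 strongest it was 45.0% for the 10 at these genes and 44.3% for all.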
